A study of Mus musculus with 6 samples.

Results

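The genes described here are published targets of the microRNA miR-142-3p, followed in cultures of mouse bone marrow in which that microRNA was supplied from outside. A list of 31 genes reported as targets was matched by gene symbol to the probe sets of the array, with Arntl also accepted as Bmal1 and Dirc2 found under its current symbol Slc49a4. Of the 31, 25 had at least 1 probe set of their own, and these 25 among 18193 measured genes are the members described below. They were read through 87 of 45037 probe sets. Hmgb1 and Twf1 appeared only on probe sets that also list other symbols and were not analysed as genes. Rock2, Prlr, Ash1l and Hmga1 were not analysed here. The studies behind the list, and the species and cells in which each target was shown, were not examined here.

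Bone marrow cells of healthy C57BL/6 mice received 100 nM of either a miR-142-3p mimic oligonucleotide or a control oligonucleotide with the reagent GeneSilencer. GM-CSF and IL-6 were added to both groups 5 h later, and after 4 days the cells, described in the labels as myeloid-derived suppressor cells (MDSCs) made in culture, were lysed for RNA. Each group had 3 Affymetrix MOE430 2.0 arrays, numbered 1 to 3 as in the labels. Whether same-group arrays stem from different cultures or mice is not stated, so each p-value below reflects the spread among these samples alone, and that spread may be technical. With 3 arrays a group, precision is limited by their number.

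MicroRNAs guide Argonaute proteins to messenger RNAs, mostly through pairing between the seed near the microRNA's 5′ end and a matching stretch in the message. A bound message is translated less and usually decays faster, so a transcript array sees the decay but not a loss of translation. miR-142 is made abundantly in blood-forming cells, and its published targets include regulators of actin, receptors and their kinases, chromatin proteins and a circadian clock factor.

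The mature sequence is shown because every member is listed for pairing with it, and the arm from the other side of the same hairpin is shown for comparison. Both are RefSeq's sequences on GRCm38.p6, where the gene Mir142 lies on the plus strand of chromosome 11. The 3p arm lies at chr11:87756903-87756925 and the 5p arm at chr11:87756867-87756887. Capitals mark the seed, bases 2 to 8.
mmu-miR-142a-3p: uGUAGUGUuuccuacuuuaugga
mmu-miR-142a-5p: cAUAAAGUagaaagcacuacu
The letters that pair with the 3p seed in a message are ACACUAC, and those that pair with the 5p seed are ACUUUAU. The current name miR-142a-3p is that of the microRNA called miR-142-3p in the labels. The sequence of the mimic itself was not given in the sources used here, and the sites in the members' messages were not used here.

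Levels are on the deposited log2 scale, with ± SD over 3 arrays after a mean, and differences are log2 fold changes, mimic minus control, with ± SE. A value on this scale does not give an amount that can be compared between probe sets. Where a gene had several probe sets, the one with the highest mean over the 6 arrays stood for the gene, and all probe sets are compared below. A gene was called at an adjusted p under 0.05 by limma over all 18193 genes.

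The cultures carried RNA of the granulocyte and monocyte lineage in both groups. The mean of S100a8 was 11.85 ± 0.02 in control arrays and 11.96 ± 0.04 in mimic arrays, and that of S100a9 was 12.21 ± 0.04 and 12.25 ± 0.03. Of the 7 measured genes of that list 3 fell, namely Itgam (-1.19 ± 0.17, adjusted p = 0.017), which encodes CD11b, the lipopolysaccharide co-receptor gene Cd14 (-1.12 ± 0.14, adjusted p = 0.0123) and the M-CSF receptor gene Csf1r (-0.57 ± 0.10, adjusted p = 0.0292). By their means 4 of the 7 were lower and 3 higher. Mpo was higher in every mimic array (0.97 ± 0.22, adjusted p = 0.0678 by limma), as was S100a8 (0.12 ± 0.08). With only genes of a mean log2 of at least 5 tested, 1 of the 7 was called higher and 3 lower. Ly6g and Ly6c1 were not analysed here. Among 8 measured interferon response genes 8 rose with the mimic, with a summed level of 10.17 to 10.84 in control arrays and 11.80 to 11.90 in mimic arrays. Of 8 dendritic cell genes 6 fell, with a summed level of 10.32 to 11.50 against 8.95 to 8.99. Of 4 mast cell genes 2 rose (8.16 to 9.05 against 9.38 to 9.56), and of 4 B cell genes 1 fell (6.25 to 6.85 against 5.90 to 6.16). No gene was called among 4 megakaryocyte, 5 T cell or 3 erythroid markers, and the T cell and erythroid markers had means of at most 2.24 and 1.21. The interferon, dendritic and granulocyte and monocyte calls were all lost, with 0 genes called, on removal of control array 2 or of either of mimic arrays 1 and 3. Without mimic array 2 they numbered 1, 2 and 0. In each of these fits the means of the 8 interferon genes stayed higher and those of the 8 dendritic genes lower. The control arrays were graded. Around their mean, the interferon genes had medians of -0.56, 0.15 and 0.41 in control arrays 1, 2 and 3, and the dendritic genes 0.67, -0.15 and -0.52. In both lists control array 1 lay furthest from the mimic arrays and control array 3 nearest. The part of these shifts in the members' values was not tested. In bulk RNA, fewer cells of a type and less RNA per cell cannot be told apart.

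None of the 25 targets passed the test in either direction. With limma, 0 were called higher and 0 lower, against 2.76% of all genes called (1.17% higher, 1.59% lower). At an unadjusted p under 0.05 there were 3 members higher and 3 lower, against 7.99% and 9.06% of all genes. By their means, 15 were higher with the mimic and 10 lower, while averaging over each gene's probe sets gave 12 higher and 13 lower. The median log2 fold change of the members was 0.05, against 0.01 over all genes, and their range ran from -0.62 for Gnaq to 0.43 for Slc49a4. The lowest adjusted p was 0.102, for Bclaf1.

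The size of fall that these arrays leave room for differed between members. The median SE of a member's log2 fold change was 0.12. Through the brightest probe set, a fall of 0.5 log2 units lay outside the 95% interval in 20 of the 25 members, against 82.8% of all genes. A fall of 20% lay outside it in 13, against 60% of all genes. The exceptions to the first were Rac1, Itgav, Gnaq, Tgfbr1 and Stau1. A rise of 0.5 log2 units lay outside the interval in 16, against 82.7% of all genes. Further probe sets left more room. A fall of 0.5 lay outside the interval in 26 of the 40 member probe sets with a mean of at least 3. Over all probe sets of that level it did so in 8835 of 12208. In Tab2, Clic4, Bclaf1, Irak1 and Clta, the interval of a further probe set of that level took in such a fall.

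**Figure D1:**
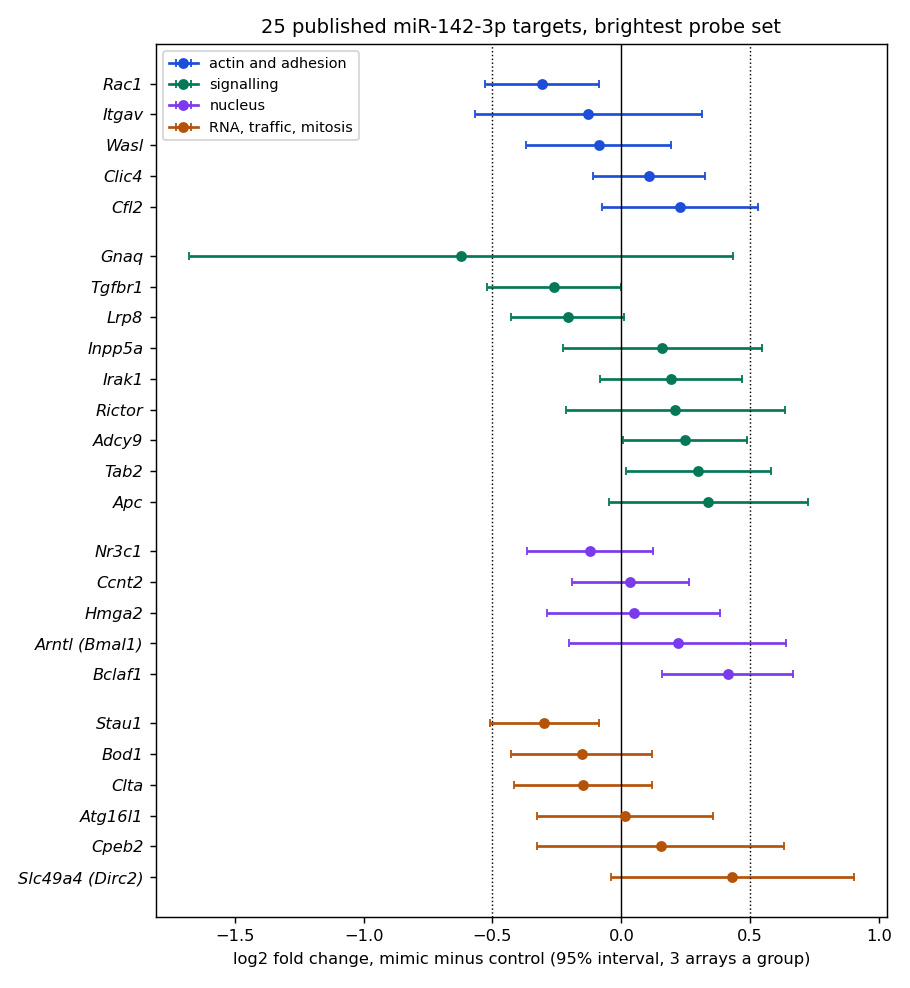
Log2 fold change (mimic minus control, x axis) of the brightest probe set of each of the 25 targets, in 4 groups by role and sorted within each, with 95% intervals from limma over 3 arrays a group. Dotted lines mark -0.5 and 0.5. Points lie on both sides of 0 in every group, and the Gnaq interval, from -1.68 to 0.43, is the widest.

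Through their brightest probe sets, members that act on actin and adhesion differed little between the groups. In these probe sets Rac1 was the only one of the 5 whose arrays separated. Further probe sets separated in Clic4 (lower) and Cfl2 (higher), as given below. Dim further probe sets, near the lower end of the values, separated in Itgav (higher) and Wasl (lower). Rac1 encodes the small GTPase that drives actin-rich protrusions. Its brightest probe set, 1451086_s_at, read 8.71, 8.70 and 8.58 in control arrays 1 to 3 and 8.27, 8.46 and 8.33 in mimic arrays 1 to 3. All 3 mimic values lay under the lowest control value. The difference was -0.31 ± 0.10, or 1.24-fold lower, and did not pass (adjusted p = 0.149). With only genes of a mean log2 of at least 5 tested, Rac1 was called lower (adjusted p = 0.0472), and 15.7% of the genes tested were called. A second Rac1 probe set of similar level overlapped between the groups (-0.06 ± 0.08), as given below.

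Clic4 encodes a protein of the chloride intracellular channel family. Its probe set 1438606_a_at read 7.15, 7.07 and 7.06 in control and 7.19, 7.31 and 7.11 with the mimic. The groups overlapped, and the difference was 0.11 ± 0.09 (adjusted p = 0.634), or 0.055 without mimic array 2. Cfl2, whose product cofilin 2 severs actin filaments, differed by 0.23 ± 0.13, and by 0.13 without mimic array 3. Itgav, the gene of the integrin alpha V subunit, differed by -0.13 ± 0.19, and by 0.07 without mimic array 3. Wasl, whose product N-WASP starts branched actin filaments, differed by -0.09 ± 0.12, with -0.19 to -0.024 when single arrays were removed. The median log2 fold change of the 5 was -0.09.

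Signalling members were higher by mean in 6 of 9, and in 4 of 9 once each gene's probe sets were averaged. In this group 4 members had every mimic array above every control array and 2 had every mimic array below. Over all genes, groups that do not overlap were found in 11% higher and 11.1% lower. Over the 25 members such separation was seen in 5 higher and 4 lower, or 36%, against 22.2% of all genes. Of the 25, however, 22 had a mean of at least 3. Separation was seen in 12.3% of all genes under 3 and in 29.5% to 47.1% in the higher ranges of level. No signalling member passed.

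Tab2 encodes an adaptor that couples receptors of the IL-1, Toll-like and TNF families to the kinase TAK1. Probe set 1423462_at of Tab2 read 6.49, 6.85 and 6.86 in control and 6.95, 7.08 and 7.06 with the mimic. Mimic values were all higher, and control array 1 lay furthest from them. The difference was 0.30 ± 0.12, or 1.23-fold (adjusted p = 0.265), and 0.18 without control array 1.

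Irak1 encodes a kinase that acts just below the IL-1 and Toll-like receptors. Its probe set 1438120_x_at read 6.34, 6.19 and 6.38 in control and 6.39, 6.40 and 6.71 with the mimic. The highest control and the lowest mimic value were nearly equal, and mimic array 3 lay above the rest. The difference was 0.19 ± 0.12 (adjusted p = 0.478), and 0.09 without mimic array 3.

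Tgfbr1, the type I receptor kinase for TGF-beta, read 5.66, 5.74 and 5.62 in control and 5.28, 5.62 and 5.35 with the mimic through probe set 1420895_at. The groups separated narrowly, since mimic array 2 came close to the control values. The difference was -0.26 ± 0.11, or 1.20-fold lower (adjusted p = 0.292). Adcy9, which encodes an adenylyl cyclase that makes cyclic AMP, was dim and read 2.15, 2.36 and 2.45 in control and 2.55, 2.60 and 2.55 with the mimic through 1449620_s_at. Every mimic array was higher, by 0.25 ± 0.10 on average (adjusted p = 0.284), and the difference was 0.16 without control array 1.

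Gnaq, which encodes the G protein subunit that activates phospholipase C, had the largest difference in size of the 25 and the widest spread. Probe set 1429559_at read 2.55, 4.31 and 4.20 in control and 2.66, 3.54 and 2.99 with the mimic. Control array 1 was below all 3 mimic arrays while control arrays 2 and 3 were above them. The difference was -0.62 ± 0.45 (adjusted p = 0.563) and -1.19 without control array 1 (adjusted p = 0.0904). It was -0.31 without control array 2 and -0.36 without control array 3. The other Gnaq probe sets with a mean of at least 3 differed by -0.15 ± 0.25 and -0.14 ± 0.25, with overlapping groups.

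The other signalling members went both ways. Lrp8, a receptor of the LDL receptor family that binds reelin, was lower in every mimic array (-0.21 ± 0.09, adjusted p = 0.322). Apc, the scaffold of the complex that degrades beta-catenin, was higher in every mimic array (0.34 ± 0.17, adjusted p = 0.362), with 0.14 left without control array 1. Rictor, the subunit that defines the kinase complex mTORC2, differed by 0.21 ± 0.18, and by 0.054 without mimic array 2 and 0.37 without control array 2. Inpp5a, a phosphatase that ends inositol trisphosphate signals, differed by 0.16 ± 0.17, and by 0.031 without control array 1, 0.026 without mimic array 2 and 0.30 without mimic array 3.

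Through their brightest probe sets, nuclear members were higher by mean in 4 of 5, with a median of 0.05. Among these probe sets, that of Bclaf1 was the 1 that separated. Bclaf1 encodes a nuclear protein of transcription and RNA processing that was found as a partner of BCL2 family proteins. Probe set 1428844_a_at read 5.57, 5.43 and 5.28 in control and 5.89, 5.89 and 5.73 with the mimic. Every mimic array was higher, by 0.41 ± 0.11 on average or 1.33-fold (adjusted p = 0.102). Bclaf1 was called higher with array weights (adjusted p = 0.023) and with only genes of a mean log2 of at least 5 tested (adjusted p = 0.033). Those settings called 5.75% and 15.7% of the genes tested. Averaged over its probe sets, however, Bclaf1 differed by -0.073.

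Nr3c1, the glucocorticoid receptor gene, stood at 5.34 ± 0.13 and 5.21 ± 0.09, a difference of -0.12 ± 0.11. Arntl, whose product BMAL1 drives the circadian clock, differed by 0.22 ± 0.18, and by 0.01 without control array 1. Ccnt2, a cyclin of the elongation kinase P-TEFb, differed by 0.04 ± 0.10. Hmga2, an architectural chromatin protein of stem and fetal cells, was dim on all arrays, with a highest value of 1.19 in its brightest probe set, and differed by 0.05 ± 0.15. In their brightest probe sets, all 4 overlapped between the groups.

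Members of RNA handling, membrane traffic and mitosis split evenly, 3 higher and 3 lower by mean, with a median of -0.07. Stau1 encodes Staufen 1, a double-stranded RNA binding protein of RNA transport and decay. Its probe set 1422766_at read 3.91, 4.06 and 3.93 in control and 3.66, 3.72 and 3.62 with the mimic. Every mimic array was lower, by 0.30 on average (-0.30 ± 0.09, 1.23-fold lower, adjusted p = 0.142). No setting tried brought Stau1 past the threshold. The next Stau1 probe set, with a mean of 3.26, differed by only -0.01 ± 0.10, and its groups overlapped. The dimmest, with a mean of 2.36, differed by -0.14 ± 0.13.

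Clta, a light chain of clathrin, read 8.70, 8.82 and 8.73 in control and 8.73, 8.69 and 8.39 with the mimic through 1421062_s_at. Mimic array 3 alone lay apart, and the groups overlapped. The difference was -0.15 ± 0.12 (adjusted p = 0.589) and -0.04 without mimic array 3. Slc49a4, a membrane transporter gene, differed by 0.43 ± 0.20 (adjusted p = 0.342), and by 0.25 without control array 1. Cpeb2, whose product binds cytoplasmic polyadenylation elements, differed by 0.15 ± 0.21, and by 0.00075 without control array 1, 0.012 without mimic array 2 and 0.37 without mimic array 3. Atg16l1, needed to build autophagosomes, differed by 0.01 ± 0.15. Bod1, which helps chromosomes attach to both spindle poles, differed by -0.15 ± 0.12, and by -0.044 without control array 1.

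**Figure D2:**
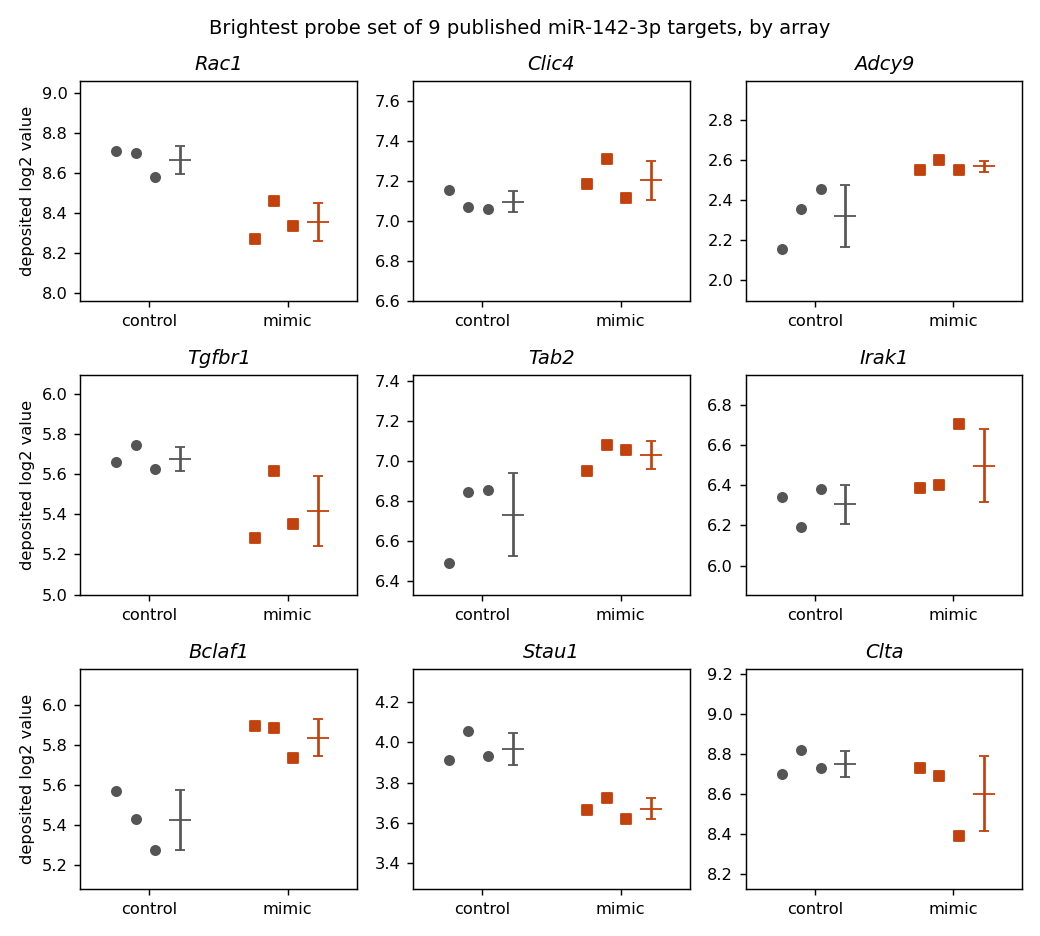
Deposited log2 values (y axis, each panel spanning the same range of 1.1) of the 9 targets with a mean of at least 6 in either group or an unadjusted p under 0.05, with control arrays 1 to 3 as grey circles and mimic arrays 1 to 3 as orange squares from left to right; bars are mean ± SD, n = 3. Rac1, Tgfbr1 and Stau1 are lower in all 3 mimic arrays, Bclaf1, Tab2, Irak1 and Adcy9 are higher, and Clic4 and Clta overlap.

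The members did not fall into order by level. Of the 25, 3 had a mean under 3, 14 from 3 to under 5, 5 from 5 to under 7 and 3 of at least 7. Their median log2 fold changes were 0.22, 0.02, 0.19 and -0.15, against 0.02, -0.03, -0.01 and 0.01 for all genes of the same levels. Separated groups were seen in 1 of 3, 3 of 14, 4 of 5 and 1 of 3 members, against 12.3%, 29.5%, 39.1% and 47.1% of all genes at those levels. With limma restricted to genes of at least 5, 2 of the 8 members were called, Rac1 lower and Bclaf1 higher, while 15.7% of all genes were called there.

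The arrays themselves placed the members unevenly. Control array 1 held the lowest of the 6 values for 11 of the 25, against 24.2% of all genes. Relative to the control mean, the median member stood at -0.14, 0.09 and 0.01 in control arrays 1, 2 and 3 and at 0.08, 0.07 and -0.08 in the mimic arrays. With control array 1 left out, the median log2 fold change of the members was 0.00075 and 0 were called, against 1.96% of all genes. At an unadjusted p under 0.05 were 4 of the 25, against 16.5% of all genes.

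Each member was next read through all of its probe sets. In a fit of all 45037 probe sets 0 of the 87 were called with limma, against 0.897% of all probe sets (0.329% higher, 0.568% lower). At an unadjusted p under 0.05 there were 8 higher and 8 lower, against 6.03% and 7.42% of all probe sets. Of the 40 with a mean of at least 3, 17 were higher and 23 lower by mean and 0 were called, against 2.62% of all probe sets at that level. Of the 25 members 23 had several probe sets, up to 7. To compare them, each further probe set was set against the brightest of its gene, array by array, and the 16752 such differences of the whole table were tested with limma. None of the 62 member pairs passed, against 0.298% of all pairs. Where both probe sets had a mean of at least 3, 18 member pairs from 12 genes remained, and 0.0559% of all such pairs passed. In 9 of the 18, from 6 genes, the fold changes had opposite signs, against 37.1% of all such pairs and 42.9% of all genes with such pairs. At an unadjusted p under 0.05 were 7 of the 18, against 15.4% of all such pairs.

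Tab2 showed the clearest case. Its second probe set, 1451003_at, read 5.72, 5.73 and 5.63 in control and 5.28, 5.29 and 5.38 with the mimic. Here every mimic array was lower, whereas through 1423462_at every mimic array was higher. The difference was -0.37 ± 0.09 (adjusted p = 0.116 over all probe sets), and the probe sets differed from each other by -0.67 ± 0.17 (adjusted p = 0.159 over all pairs). Among probe sets with a mean of at least 3 alone, 1451003_at was called lower (adjusted p = 0.0492). The platform annotation lists the same database sequence for both. Averaged over both, Tab2 differed by -0.04.

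Clic4 had 2 further probe sets that were lower with the mimic. The first, 1423393_at, read 6.89, 6.64 and 6.57 in control and 6.35, 6.50 and 6.47 with the mimic (-0.26 ± 0.11). The second, 1423392_at, read 5.20, 5.14 and 5.07 in control and 4.92, 4.56 and 4.95 with the mimic (-0.33 ± 0.12). Both separated downward, while the brightest overlapped with a mean that was higher. Their differences shrank to -0.17 without control array 1 in the first and to -0.20 without mimic array 2 in the second. They differed from the brightest by -0.37 ± 0.15 and -0.44 ± 0.18 (adjusted p = 0.331 and 0.343 over all pairs).

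Bclaf1 was read by 4 probe sets of at least 3, of which the 2 brighter were higher and the 2 dimmer lower by mean. Its brightest stood at 0.41, as above, and the next, 1428845_at, at 0.13. The dimmer 1438089_a_at read 4.72, 5.01 and 4.94 in control and 4.70, 4.25 and 4.95 with the mimic (-0.25 ± 0.18). In 1436023_at the values were 3.54, 4.11 and 4.30 and 3.47, 2.68 and 3.80 (-0.67 ± 0.31). Mimic array 2 was the lowest in both of the latter, and the groups overlapped. Without it the differences were -0.06 and -0.35. These 2 differed from the brightest by -0.67 ± 0.24 and -1.08 ± 0.35 (adjusted p = 0.288 and 0.249 over all pairs).

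Irak1 and Nr3c1 were also read both ways. For Irak1, probe sets 1448668_a_at and 1460649_at differed by -0.22 ± 0.10 and -0.23 ± 0.13 between the groups, and 1438857_x_at by 0.22. Both that were higher carry the suffix x, which Affymetrix gives to probe sets that may bind unrelated sequences. For Nr3c1, probe set 1460303_at read 3.81, 4.57 and 4.33 in control and 4.63, 4.65 and 4.62 with the mimic, so that it was higher in every mimic array (0.40 ± 0.18, and 0.18 without control array 1). It differed from the brightest Nr3c1 probe set by 0.52 ± 0.17 (adjusted p = 0.261 over all pairs). The probe sets of Wasl differed by -0.09 and 0.11, each less than its SE.

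Rac1 and Clta were read by bright probe sets that had the same sign. The second Rac1 probe set, 1423734_at, read 8.46, 8.49 and 8.55 in control and 8.48, 8.37 and 8.45 with the mimic. Its groups overlapped, with a difference of -0.06 ± 0.08, although the platform annotation lists the same database sequence for both. The 2 did not differ from each other beyond the threshold (0.24 ± 0.15, adjusted p = 0.533 over all pairs). The second Clta probe set, 1434540_a_at, differed by -0.27 ± 0.17, and by -0.076 without control array 1. These probe sets of Rac1 and Clta were chosen after their values were seen.

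**Figure D3:**
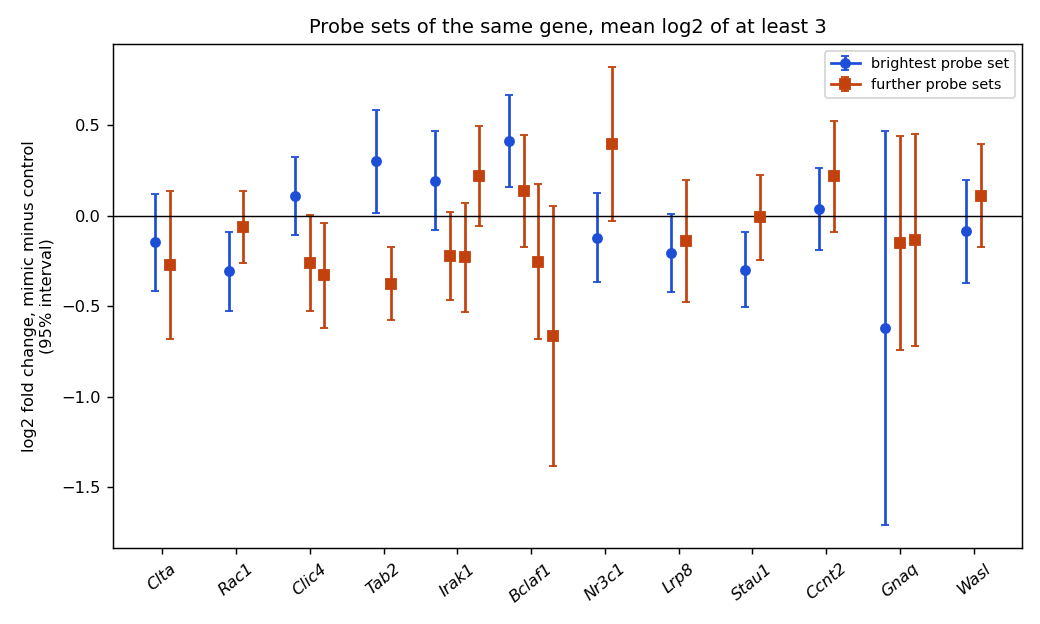
Log2 fold change (mimic minus control, y axis) of every probe set with a mean log2 of at least 3 for the 12 targets that have more than 1, with 95% intervals from the limma fit of all probe sets; blue circles are the brightest probe set of a gene and orange squares the others, from brighter to dimmer. The Tab2 intervals lie on opposite sides of 0, and the Bclaf1 points run from 0.41 down to -0.67.

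**Figure D4:**
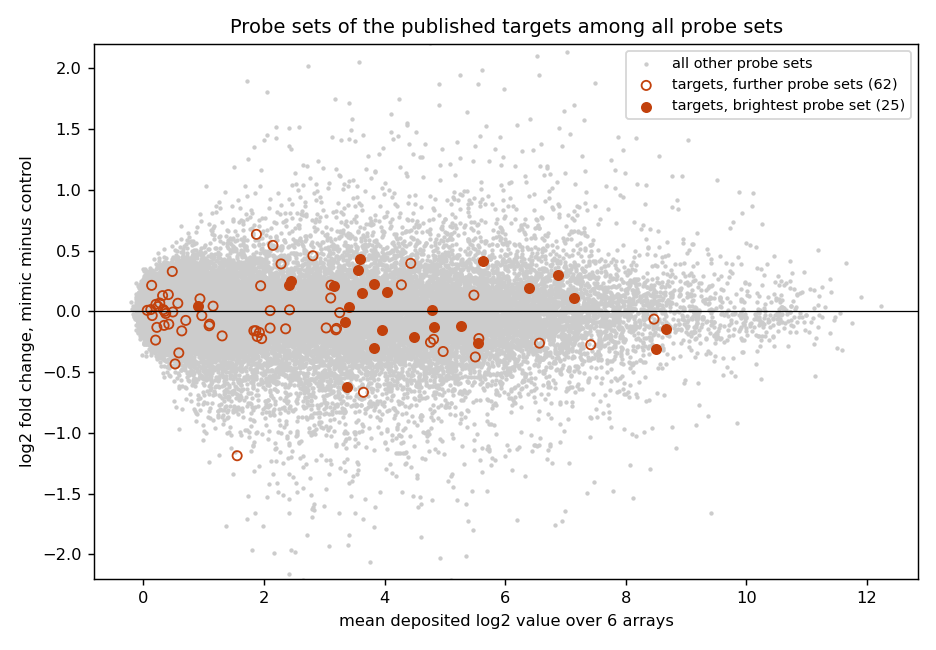
Log2 fold change (mimic minus control, y axis) against the mean deposited log2 value over the 6 arrays (x axis), with the 25 brightest target probe sets as filled and the 62 others as open orange circles over all other probe sets in grey. The y axis ends at -2.2 and 2.2, which leaves 28 of the grey probe sets outside, and every target probe set lies between -1.19 and 0.63.

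Relatives and partners of the members gave a comparison within the same pathways. Of 38 such genes listed, 36 were measured, among them Rac2 and Cdc42 beside Rac1, and Tgfbr2 beside Tgfbr1. With limma 0 of the 36 were called, against 2.76% of all genes, and at an unadjusted p under 0.05 there were 6 lower and 0 higher, against the 9.06% and 7.99% of all genes given above. By their means 24 were lower and 12 higher, with a median log2 fold change of -0.13, against 0.05 for the members and 0.01 for all genes. The groups separated downward in 10 and upward in 1, against 11.1% and 11% of all genes. The related genes had a median level of 4.81, against 1.99 for all genes, and separation was more frequent at such levels. Of 3569 genes from 3 to under 5, 642 separated downward and 412 upward. Of 2994 genes from 5 to under 7, 616 separated downward and 556 upward.

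Rac2, the Rac of blood cells, differed by 0.05 ± 0.13 and Cdc42, a small GTPase of cell polarity, by 0.02 ± 0.11, beside -0.31 for Rac1. Clic1 was lower in every mimic array, by 0.43 on average (-0.43 ± 0.13, adjusted p = 0.147), beside 0.11 for Clic4. Adcy7, the adenylyl cyclase of blood cells, differed by -0.16 ± 0.19 beside 0.25 for Adcy9. Thrap3, a close relative of Bclaf1, differed by 0.11 ± 0.12 beside 0.41. All these values are of brightest probe sets. Further probe sets with a mean of at least 3 differed by -0.06 in Rac1 and by -0.26 and -0.33 in Clic4. In Bclaf1 they differed by 0.13, -0.25 and -0.67. Averaging over probe sets turned the sign for Clic4, Bclaf1, Cdc42 and Thrap3, as given below. The differences between members and relatives were not tested.

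**Figure D5:**
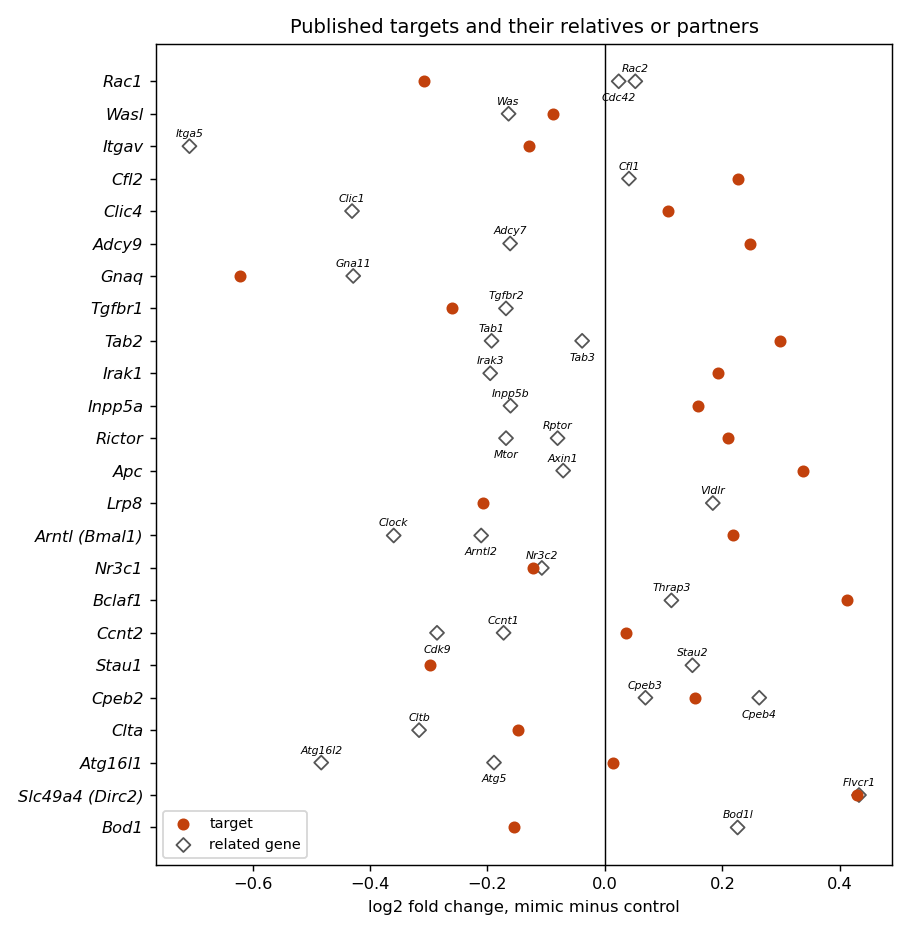
Log2 fold change (mimic minus control, x axis) of each target with a measured relative or partner, as orange circles, and of those genes, as labelled grey diamonds on the same line; each point is a difference of means over 3 arrays a group. The diamonds lie mostly to the left of 0 and the circles on both sides, with a median of 0.05 over all 25 targets. Over all 36 related genes the median was -0.13, which includes relatives of targets not analysed that are not drawn.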

How the data were processed

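The deposited table holds 1 log2 value per probe set and array for 6 arrays. The submitters' processing notes name RMA and affy, without giving a version or a role. How the values were centred and floored by the authors is not given in the sources used here. Base 2 was assumed. The values reach 12.3, which as an unshifted natural log would pass the 16-bit limit of a scanner, at 11.1. The spike-in probe sets rose by 0.757 to 0.879 per log2 step of their standard concentrations, which alone does not settle the base. Folds and percentages given here rest on that assumption. Column medians ran from 0.84 to 0.92, and no further normalisation was applied.

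Of 45101 probe sets, 64 controls were left out, 34945 had 1 symbol in the platform annotation, 932 several and 9160 none listed. Symbols were updated to RefSeq names through gene identifiers (34741 matched). Each of 18193 genes was represented by its probe set with the highest mean. The test of mimic against control was limma's (version 3.58.1, R 4.3.3), two-sided, with lmFit and eBayes on all 6 arrays and no covariate, with Benjamini-Hochberg adjustment over all genes, over all 45037 probe sets, or over all 16752 differences between a further and the brightest probe set of a gene. The methods were tested on simulated data, where small differences were mostly missed. Over genes, differences of size 0.3, 0.5, 1 and 2 were recovered in 0.2%, 17.6%, 72.8% and 96.4%. Over probe set pairs, those of size 0.5, 1 and 2 were recovered in 0.2%, 45.4% and 89%.

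Array-by-array values are given for members with a mean of at least 6 in either group or an unadjusted p under 0.05 and, chosen after its values were seen, for Gnaq, and a further probe set of a mean of at least 3 is named for an unadjusted p under 0.05 or a sign opposite to a brightest one of at least 3. Relatives of these members are named at a mean of at least 6. Further probe sets of Stau1 and Gnaq were added after their values were seen. The members, the related genes and the marker lists were chosen with earlier results of these data known, so no test over a list was made. The results were recomputed with a block for replicate number, with single arrays removed, without dim features, and with centring, quantile normalisation, array weights, a trended robust variance and the mean over a gene's probe sets.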

Additional observations from a re-analysis of the deposited data

How the results depend on the processing

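Tested as genes, the targets gave 1 call with array weights, Bclaf1, against 5.75% of all genes. With a minimum mean of 5, 2 of 8 targets were called, Rac1 and Bclaf1, against 15.7% of the 4093 genes tested. No other setting called a target as a gene, and the median over the targets ran from -0.0072 to 0.095. With single arrays left out, the number of genes called ran from 0 to 413, of probe sets from 0 to 314 and of probe set pairs from 0 to 151, against 503, 404 and 50 with all arrays. Genes, probe sets and pairs called fell to 0 when control array 2 or either of mimic arrays 1 and 3 was removed, where 2564, 2343 and 2746 genes had an unadjusted p under 0.05. Without mimic array 2, 65 genes, 0 probe sets and 2 pairs were called, without control array 3, 174 probe sets and 16 pairs, and without control array 1, 151 pairs. The replicate number as a block gave 314 genes, 69 probe sets and 21 pairs, and no target was called. The deviations of same-numbered arrays correlated at -0.11, 0.19 and -0.24. With 3 arrays a group, these values cannot show whether same-numbered arrays share a culture, mouse or batch. Array weights gave 1047 genes and 944 probe sets. Probe sets called were 835 and 780 with minimum means of 3 and 5, 634 with quantile normalisation and 812 with a trended robust variance. With both probe sets at least 3 tested alone, 0 pairs were called. The cause of these shifts was not tested.

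Averaging a gene's probe sets turned the log2 fold change to 0.021 for Itgav, -0.16 for Clic4, -0.038 for Tab2, -0.010 for Irak1, -0.073 for Bclaf1, -0.14 for Cdc42 and -0.12 for Thrap3. With single arrays left out, signs turned for Hmga2 (-0.084 to 0.13), Ccnt2 (-0.013 to 0.088), Atg16l1 (-0.14 to 0.13), Itgav (-0.23 to 0.075), Cdc42 (-0.040 to 0.087), Rac2 (-0.076 to 0.14) and Adcy7 (-0.28 to 0.029). Array weights turned Atg16l1 to -0.027 and Cdc42 to -0.0014, and quantile normalisation turned Cdc42 to -0.00091. Over the named genes and probe sets, 550 of the recomputed values kept their direction and their side of the threshold, 23 turned direction and 8 passed the threshold anew. No further target turned direction under these alternatives.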

Other observations

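The probe set with the largest difference in size among the targets was a dim one, of Nr3c1. Of the 87 probe sets 47 had a mean under 3, and of these 6 were higher and 3 lower at an unadjusted p under 0.05, with 0 called by limma. Over all 32829 probe sets under 3 the shares were 4.01% higher, 4.11% lower and 0.256% called. It, 1421866_at, read 1.59, 2.60 and 2.26 in control and 1.24, 0.82 and 0.83 with the mimic, so that every mimic array was lower. The difference was -1.19 ± 0.25 (adjusted p = 0.0963 by limma over all probe sets). It was called without control array 1 (-1.47, adjusted p = 0.0458), with array weights (adjusted p = 0.0248) and with a trended robust variance (adjusted p = 0.037). The brightest Nr3c1 probe set differed by -0.12 and the next by 0.40, so the probe sets of the glucocorticoid receptor gene spanned both directions.

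Of the 4 probe sets of Adcy9 the 3 brighter were higher with the mimic by mean and the dimmest, 1434454_at, was lower (-0.17 ± 0.12). Beside 0.25 for the brightest, 1419811_at differed by 0.39 ± 0.16 and 1418586_at by 0.54 ± 0.22 (adjusted p = 0.358 and 0.347 by limma over all probe sets). Probe set 1418066_at of Cfl2 read 1.17, 1.66 and 1.84 in control and 2.15, 2.21 and 2.21 with the mimic, a difference of 0.63 ± 0.17 (adjusted p = 0.155). It had the same sign as the brightest Cfl2 probe set, at 0.23. These probe sets were chosen after their values were seen, and at this level a difference rests on values close to the lower end of the table, where 52.6% of all values lie below 1.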
